A study of Mus musculus with 5 samples.

Results

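The genes described are 9 transcription factors, chosen by symbol, out of 51912 genes listed. Pax2 and Pax8 stand for the Wolffian duct, and Foxa1, Foxa2, Sox9, Trp63, Gata2, Gata3 and Ehf stand for the urogenital sinus. Total RNA of the mouse dorsolateral prostate was sequenced, from males aged 3 months. The 3 control samples carried loxP-flanked Ghr alleles (Ghrflox/flox) and no Cre. The 2 samples labelled Ghr deletion carried the same alleles and 1 copy of a tamoxifen-inducible Cre at ROSA26, a locus that is active in most cell types (Ghrflox/flox;ROSA26Cre-ERT2+/0). Tamoxifen was given to both groups (250 mg/kg, once a day on 5 days), and the prostate was collected when 1 month had passed since the final dose. The labels do not say that samples of a group came from separate animals, so the p-values measure only the spread between these samples, which may be technical. Cre was present only in the deletion group, so effects of Cre and of Ghr loss cannot be told apart.

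The male tract has a double embryonic origin. The Wolffian ducts, which form in the mesoderm, give rise to the epididymis, vas deferens and seminal vesicle, and need the paired-box factors Pax2 and Pax8. The urogenital sinus, a derivative of the hindgut, gives rise to the prostate, whose buds express Foxa1, Foxa2 and Sox9 and whose basal cells depend on p63, the product of Trp63. Gata2 and Gata3 act in prostate epithelium and are also expressed in the Wolffian duct, so the division between the 2 sets is not strict.

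The libraries held 19517831 to 41553558 expected counts. The small RNAs Rn7s1, Rn7s2 and Rn7sk took 39.4% to 81.6% of all TPM (transcripts per 1e6, a level per transcript length), most in control replicate 2, so TPM is used here to compare genes within a library. Libraries are compared in CPM (counts per 1e6) scaled by the trimmed mean of M values (TMM). Ghr itself had 10.1, 11.8 and 13.2 CPM in control replicates 1 to 3, against 21.5 and 10.2 CPM in the pair labelled Ghr deletion, so the groups overlapped for the deleted gene, counted over its whole length, and the labels are not checked by it. Prostate markers were unevenly present. Hoxb13, a defining factor of the prostate, had 8 and 150 counts in control replicates 1 and 2 and 0 in control replicate 3, against 0 and 9 in the deletion-labelled pair. Pbsn, which encodes the prostate secretory protein probasin, had 11.1, 475, 0.816, 0.0454 and 8.76 CPM in the same order. The 9 prostate secretory markers summed to 2980, 3190 and 16.3 CPM among controls, against 86.5 and 191 CPM in the deletion-labelled pair, but single genes carried the sums. Spink1 gave 2940 CPM in control replicate 1, Tgm4 gave 1600 CPM in control replicate 2 and 162 CPM in Ghr deletion replicate 2, and Mmp7 gave 83.7 CPM in Ghr deletion replicate 1. For Hoxb13 and Pbsn, control replicate 3 lay within the range of the deletion-labelled pair, and it stood apart from the other controls for several factors below.

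The 2 Wolffian factors differed from each other in their pattern over libraries, so the sequences at their starts are shown first. Both are RefSeq sequences of GRCm38.p6 in the direction of the gene, 250 bases before and 50 after an annotated start. The Pax8 window is chr2:24475550-24475849 on the minus strand, and the Pax2 window, the 1 of 3 whose start lies nearest to the GENCODE gene start, is chr19:44755502-44755801 on the plus strand. Capitals mark matches to any of 8 searched motifs.
Pax8: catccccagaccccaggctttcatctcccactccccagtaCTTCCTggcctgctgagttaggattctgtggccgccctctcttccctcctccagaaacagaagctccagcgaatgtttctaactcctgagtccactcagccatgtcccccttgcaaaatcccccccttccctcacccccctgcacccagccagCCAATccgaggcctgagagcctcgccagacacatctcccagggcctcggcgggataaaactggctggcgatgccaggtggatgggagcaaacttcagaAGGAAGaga
Pax2: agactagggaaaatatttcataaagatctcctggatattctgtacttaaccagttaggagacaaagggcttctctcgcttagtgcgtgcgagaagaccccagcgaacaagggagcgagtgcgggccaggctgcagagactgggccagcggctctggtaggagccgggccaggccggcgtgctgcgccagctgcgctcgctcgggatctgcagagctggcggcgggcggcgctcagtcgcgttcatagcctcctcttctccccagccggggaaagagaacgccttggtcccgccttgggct
The motifs, searched on both strands, were AGATAA for zinc finger factors of the Gata family, TGTTTAC for Foxa factors, AGAACA for steroid hormone receptors, AGGAAG for ETS factors, GTCACGC for paired-box factors, ACAATG for Sox factors, TATAAA for the core promoter box of that name and CCAAT for the box of that name. The Pax8 window held 2 ETS matches, which begin 210 bases before and 41 bases after the start, and 1 CCAAT box that begins 57 bases before it. An ETS match was present in 35.4% and a CCAAT box in 37.4% of 32851 promoter windows, so both are common. None of the 8 motifs matched in this Pax2 window or in the other 2. Of the 9 genes, 6 had a promoter window, with 11 windows in all. The Foxa1 window held 1 FOXA match, a motif found in 3.65% of windows, and 1 CCAAT box. Its start, 57546111, lies inside the gene, whose GENCODE start is 57546916. Windows of Foxa2 and Gata2 also held matches, and the Gata3 window held none. The FOXA match was not tested against the number of windows and motifs searched. A match describes letters only and does not show binding.

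The order of the factors by TPM was the same in all 5 libraries for some and not for others. Ehf, an ETS factor of glandular epithelium, was the most abundant in every library. It had 70.0, 27.5 and 83.2 TPM in the controls and 163 and 100.9 TPM in the deletion-labelled pair. These TPM values do not compare the groups, which is done in CPM below. Gata2 and Gata3 came next and exchanged places between libraries, with Gata2 above Gata3 in 2 of 5. Trp63 lay below both of them in all 5. By mean TPM, Pax8, Sox9, Foxa1 and Pax2 followed, but their order differed between libraries. Pax8 was above Sox9 in 3 of 5 libraries and was below both Pax2 and Foxa1 in control replicate 2, and Foxa1 was above Pax2 in 2 of 5. Over the 5 libraries the mean level ran from 89.0 TPM for Ehf through 22.2 for Gata2, 21.4 for Gata3, 6.61 for Trp63, 3.23 for Pax8, 3.07 for Sox9 and 1.32 for Foxa1 to 1.22 for Pax2. Foxa2, a factor of early prostate buds and neuroendocrine cells, had 0 counts in every library. A floor of 3 counts allows up to 0.185 CPM in the shallowest scaled library, control replicate 1, and 0.0662 CPM in control replicate 3, for counting error only. Of 6 neuroendocrine markers, Insm1 was also at 0 in all 5 libraries.

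**Figure D1:**
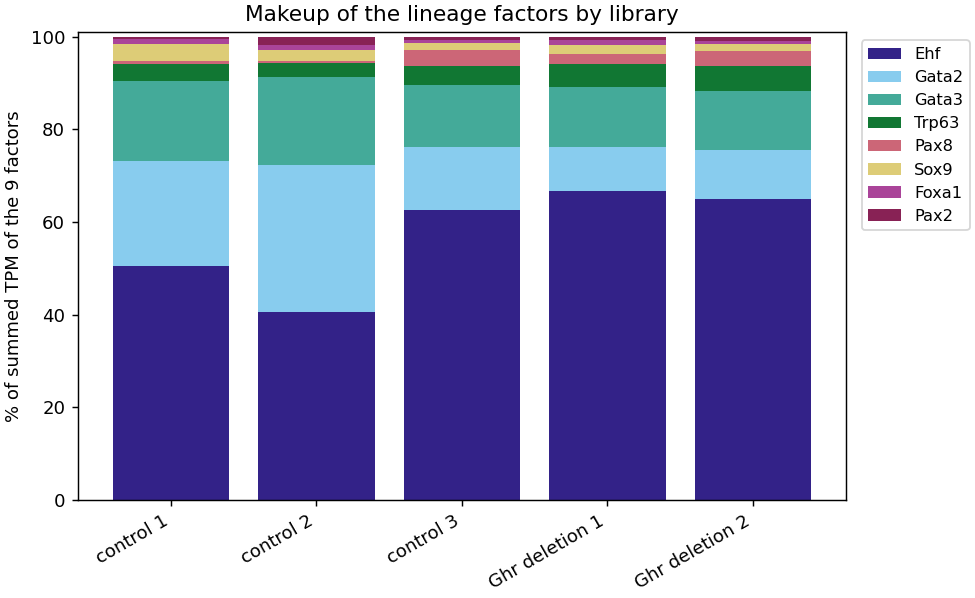
Each bar is 1 library and shows the percent of the summed TPM of the 9 factors that came from each factor (y axis, %). Ehf took 40.6% to 62.6% among controls, against 64.9% and 66.6% in the deletion-labelled pair, and Gata2 took 22.7%, 31.8% and 13.5% among controls, against 9.57% and 10.7%.

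The 2 Wolffian factors did not move together. Pax8 (ENSMUSG00000026976, GRCm38 chromosome 2, 24420560 to 24475599) had 3.58, 4.01 and 13.8 CPM among controls, against 8.55 and 12.98 CPM in the deletion-labelled pair. Control replicates 1 and 2 were low, control replicate 3 was the highest of all, and the groups overlapped. The group means were 7.12 ± 5.76 CPM (SD, n = 3) and 10.8 ± 3.12 CPM (SD, n = 2). Its log2 fold change, Ghr deletion over control, was 0.58 (SE 0.64, 95% confidence interval -0.99 to 2.16), and edgeR's quasi-likelihood test gave 0.881 as adjusted p. Without control replicate 3 the log2 fold change was 1.49, and without control replicates 1 and 2 together it was -0.35, so its sign depended on which controls were used. In bulk tissue, fewer cells of a type and less RNA per cell cannot be told apart, here and below.

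Pax2 (ENSMUSG00000004231, chromosome 19, 44756045 to 44837871) had 3.70, 15.2 and 4.21 CPM among controls, against 3.43 and 3.26 CPM in the deletion-labelled pair. Control replicate 2 stood alone, and the other 4 libraries lay within 1 CPM of each other. Both deletion-labelled libraries were below every control, but the gap to control replicate 1 was small. The means were 7.71 ± 6.50 CPM (SD, n = 3) and 3.34 ± 0.12 CPM (SD, n = 2), with a log2 fold change of -1.20 (SE 0.69, 95% confidence interval -2.91 to 0.50, adjusted p = 0.874 by edgeR). Without control replicate 2 the log2 fold change was -0.25. On log2(TPM + 1) its sign turned to 0.37, while the median of all genes lay at 0.87 on that scale.

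Control replicate 2 was also high in other genes beside Pax2. The 6 neuroendocrine markers summed to 28.3 CPM there, against 0.89 to 2.90 CPM in the other 4 libraries. The part of these cells in the Pax2 value was not tested.

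**Figure D2:**
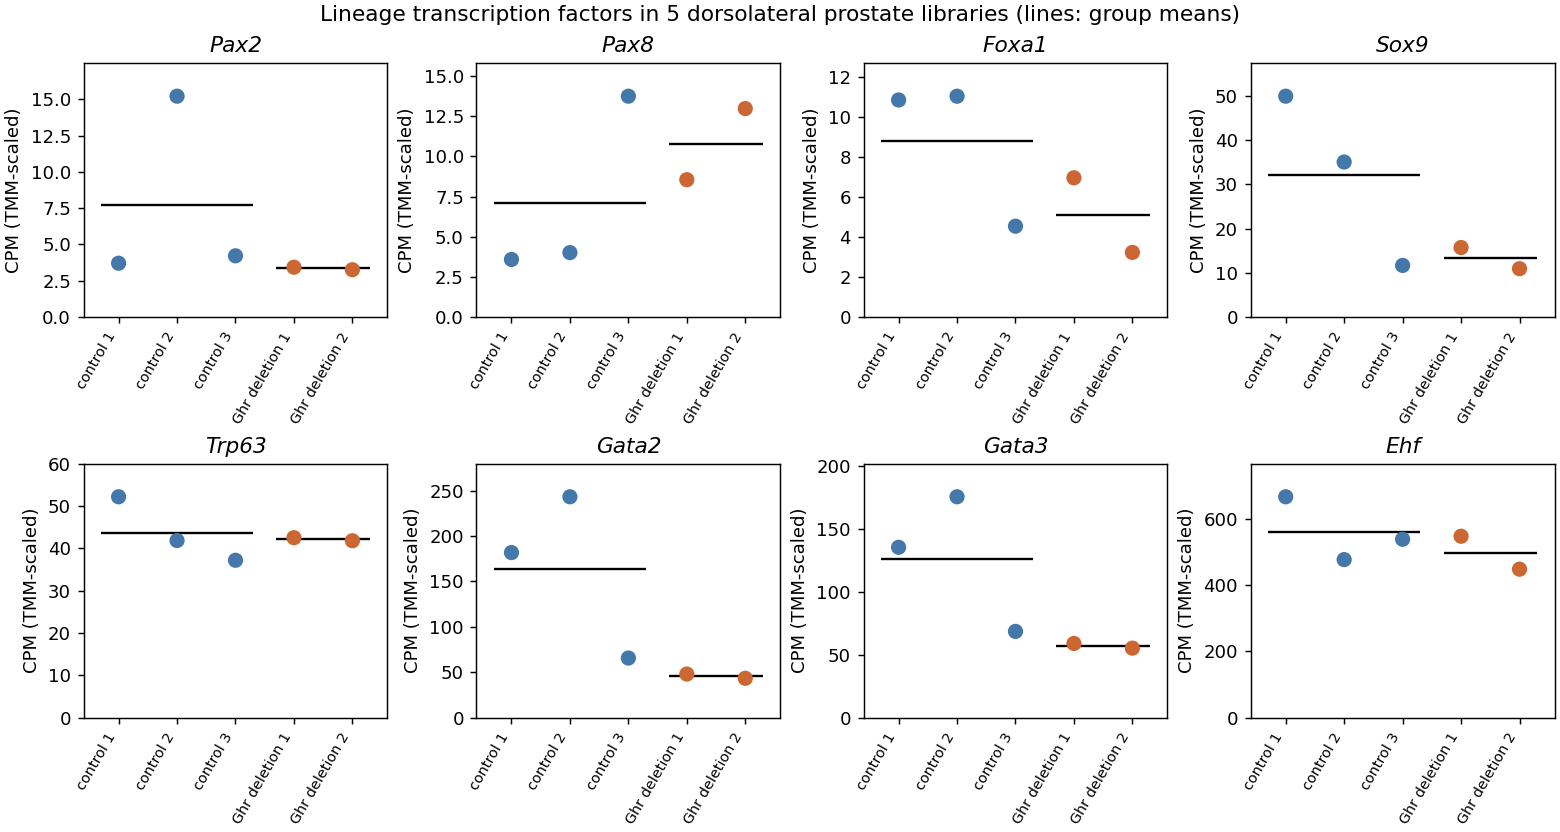
Each point is the TMM-scaled CPM (y axis, from 0) of 1 factor in 1 library, blue for the 3 controls and orange for the 2 libraries labelled Ghr deletion, and the lines are group means. Pax8 was low in control replicates 1 and 2, Pax2 was high in control replicate 2 only, and Gata2 and Gata3 were highest in control replicates 1 and 2.

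The ratio of Pax8 to Pax2 within a library, which does not depend on scaling between libraries, showed the same divergence. It was 1.09, 0.285 and 4.51 among controls, against 2.81 and 4.07 in the deletion-labelled pair, on the TPM scale. Pax2 exceeded Pax8 in control replicate 2 alone. Together the pair made up 1.02%, 2.33% and 4.31% of the summed TPM of the 9 factors among controls, against 2.97% and 4.01% in the deletion-labelled pair. The mean share was 2.56% ± 1.66 (SD, n = 3) against 3.49% ± 0.74 (SD, n = 2), a difference of 0.935 percentage points that is smaller than the spread among controls. In CPM in place of TPM the share was 0.66%, 1.92% and 2.42% among controls, against 1.64% and 2.63% in the deletion-labelled pair, a difference of 0.467 points. With Gata2 and Gata3 left out of the summed TPM the difference was 0.419 points. With Ehf left out, a choice made after seeing the data, it was 4.33 points, with 2.06%, 3.93% and 11.5% among controls, against 8.90% and 11.4%. Control replicate 3 had the highest share on the TPM scale and Ghr deletion replicate 2 on the CPM scale. Ehf alone gave 40.6% to 66.6% of the summed TPM. The share therefore describes these 9 genes and does not measure the amount of Wolffian or sinus tissue.

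**Figure D3:**
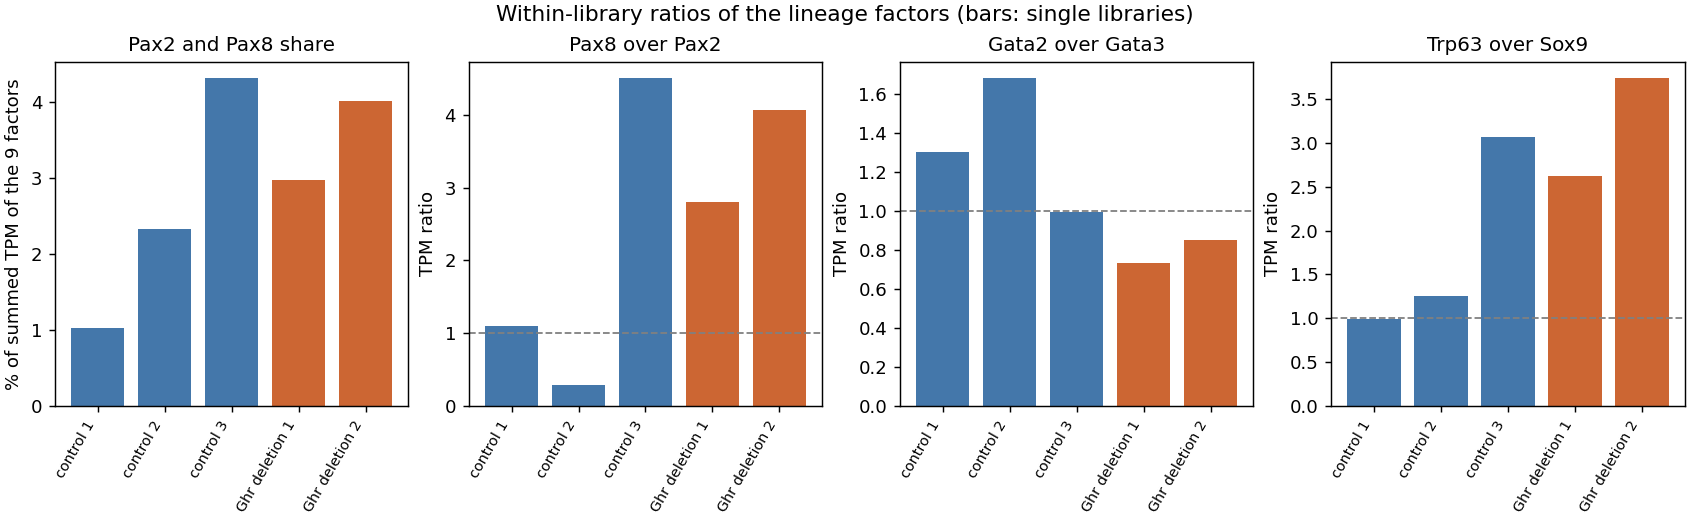
Bars give, for each of 5 libraries, the share of Pax2 and Pax8 in the summed TPM of the 9 factors (%) and 3 TPM ratios, with a dashed line at 1. Control replicate 3 sits near the libraries labelled Ghr deletion in the Pax8 over Pax2 ratio (4.51 against 2.81 and 4.07) and in the Trp63 over Sox9 ratio (3.07 against 2.62 and 3.74).

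Pax8 overlaps another gene, which affects its counts. Gm13415, a noncoding transcript on the opposite strand (chromosome 2, 24440418 to 24486855), shares 367 exon bases with Pax8. Pax8 had 623.66, 376.82 and 514.17 expected counts in control replicate 3 and Ghr deletion replicates 1 and 2, and Gm13415 had 238.34, 143.18 and 187.83. The 2 genes summed to 79, 122, 862, 520 and 702, whole numbers in all 5 libraries within 0.01, so reads that fit both genes were shared out between them. Strand did not keep these reads apart, so the Pax8 value may hold reads of Gm13415. The summed level was 4.88, 6.27 and 19.0 CPM among controls, against 11.8 and 17.7 CPM in the deletion-labelled pair. The other 8 factors had whole expected counts in every library, Gata3 included, although Gata3 shares 155 exon bases with Gm13256 and 77 with 9230102O04Rik.

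Among the urogenital sinus factors, Gata2 and Gata3 had the smallest p. Gata2 (ENSMUSG00000015053, chromosome 6, 88193891 to 88207032), a zinc finger factor, had 182, 243 and 65.6 CPM among controls, against 47.9 and 43.2 CPM in the deletion-labelled pair. Control replicates 1 and 2 were the highest, and the groups did not overlap. The means were 164 ± 90.2 CPM (SD, n = 3) and 45.6 ± 3.32 CPM (SD, n = 2). The log2 fold change was -1.84 (SE 0.56, 95% confidence interval -3.23 to -0.45), and edgeR gave an unadjusted p of 0.0177 and an adjusted p of 0.874. Without control replicates 1 and 2 together it was -0.52, and without control replicate 3 it was -2.23 with an adjusted p of 0.0602.

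Gata3 (ENSMUSG00000015619, chromosome 2, 9857078 to 9890034), a relative of Gata2 active in luminal progenitors, had 135, 175.2 and 68.4 CPM among controls, against 58.8 and 55.1 CPM in the deletion-labelled pair. The order of libraries was that of Gata2, over a narrower range. The means were 126 ± 54.0 CPM (SD, n = 3) and 56.9 ± 2.63 CPM (SD, n = 2), and the log2 fold change was -1.15 (SE 0.41, 95% confidence interval -2.17 to -0.13). Its unadjusted p was 0.0334 and its adjusted p was 0.874 by edgeR. On log2(TPM + 1) the value was 0.47, where the median of all genes was 0.87. The TPM ratio of Gata2 to Gata3 was 1.3, 1.68 and 0.993 among controls, against 0.732 and 0.848 in the deletion-labelled pair, so Gata2 was the more abundant only in control replicates 1 and 2.

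Several seminal vesicle genes were high in the same libraries as Gata2 and Gata3. Svs1 had 32900, 22500 and 58.6 CPM among controls, against 0.0454 and 7.90 CPM in the deletion-labelled pair, and Svs6 had 19900, 8910 and 70.2 CPM, against 5.94 and 10.6 CPM. Both encode secreted proteins of the seminal vesicle, and their part in the Gata2 and Gata3 values was not tested. Svs2 and Pate4, from the same list of 8 genes, went the other way. Svs2 had 68600, 47300 and 141000 CPM among controls, against 67700 and 119000 CPM in the deletion-labelled pair. Pate4 had 21100, 10500 and 33100 CPM among controls, against 20900 and 30500 CPM in that pair. Gata2 and Gata3 are also factors of mast cells, endothelium and lymphocytes. The 6 mast cell markers summed to 3.64, 5.39 and 34.8 CPM among controls, against 33.7 and 50.6 CPM in the deletion-labelled pair, which overlap, and Fcer1a was at 0 in 3 libraries. Kit made up most of each sum, with 2.53, 5.19 and 32.8 CPM among controls, against 29.0 and 50.4 CPM in the deletion-labelled pair. The other 5 markers reached 1.52 CPM at most. The 6 endothelial markers summed to 104, 69.7 and 93.5 CPM among controls, against 134 and 82.9 CPM in the deletion-labelled pair, which overlap. The 6 T and innate lymphoid markers summed to 10.8, 6.01 and 2.32 CPM among controls, against 5.22 and 2.35 CPM in the deletion-labelled pair. The part of mast cells, endothelium and lymphocytes in the Gata2 and Gata3 values was not tested.

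Sox9 (ENSMUSG00000000567, chromosome 11, 112782224 to 112787760), an HMG-box factor of prostate buds, had 50, 35.1 and 11.7 CPM among controls, against 15.7 and 10.9 CPM in the deletion-labelled pair. Control replicate 3 lay between the deletion-labelled libraries, so the groups overlapped. The means were 32.3 ± 19.3 CPM (SD, n = 3) and 13.3 ± 3.39 CPM (SD, n = 2), with a log2 fold change of -1.27 (SE 0.61, adjusted p = 0.874 by edgeR). Without control replicates 1 and 2 together it was 0.20.

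Foxa1 (ENSMUSG00000035451, chromosome 12, 57540628 to 57546916), a forkhead factor that opens chromatin, had 10.9, 11.1 and 4.54 CPM among controls, against 6.97 and 3.23 CPM in the deletion-labelled pair. Again control replicate 3 lay between the deletion-labelled libraries. The log2 fold change was -0.78 (SE 0.53, adjusted p = 0.874 by edgeR). Foxa2 (ENSMUSG00000037025, chromosome 2, 148042877 to 148046969) was at 0, so no ratio of the 2 Foxa genes can be given.

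Trp63 and Ehf were the steadiest of the factors. Trp63 (ENSMUSG00000022510, chromosome 16, 25683763 to 25892102), the master factor of basal cells, had 52.2, 41.9 and 37.2 CPM among controls, against 42.5 and 41.8 CPM in the deletion-labelled pair. Its highest level was 1.40 times its lowest, and its log2 fold change was -0.0525 (SE 0.21, 95% confidence interval -0.57 to 0.47, adjusted p = 0.961 by edgeR). Ehf (ENSMUSG00000012350, chromosome 2, 103263433 to 103303278) had 666, 477 and 538 CPM among controls, against 547 and 448 CPM in the deletion-labelled pair. The highest was 1.49 times the lowest, and the log2 fold change was -0.17 (SE 0.29, 95% confidence interval -0.89 to 0.54, adjusted p = 0.914 by edgeR). By contrast, the highest level was 3.18 to 5.63 times the lowest in Pax2, Pax8, Foxa1, Sox9, Gata2 and Gata3.

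Ratios within libraries set Trp63 apart from Sox9. The TPM ratio of Trp63 to Sox9 was 0.992, 1.25 and 3.07 among controls, against 2.62 and 3.74 in the deletion-labelled pair, again with control replicate 3 beside the deletion-labelled libraries. The ratio of Ehf to Trp63 stayed between 11.6 and 15.5 in all 5 libraries. Krt5, a keratin of the basal cells in which Trp63 is expressed, gave a Trp63 to Krt5 ratio of 0.856, 0.640 and 0.833 among controls, against 1.08 and 1.13 in the deletion-labelled pair. The 7 basal markers summed to 178, 225 and 142 CPM among controls, against 135 and 114 CPM in the deletion-labelled pair, and for 4 of the 7 both deletion-labelled libraries were below every control, as for 12.5% of all genes. The 6 luminal markers summed to 2230, 1430 and 1420 CPM among controls, against 2150 and 1320 CPM in the deletion-labelled pair, which overlap.

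**Figure D4:**
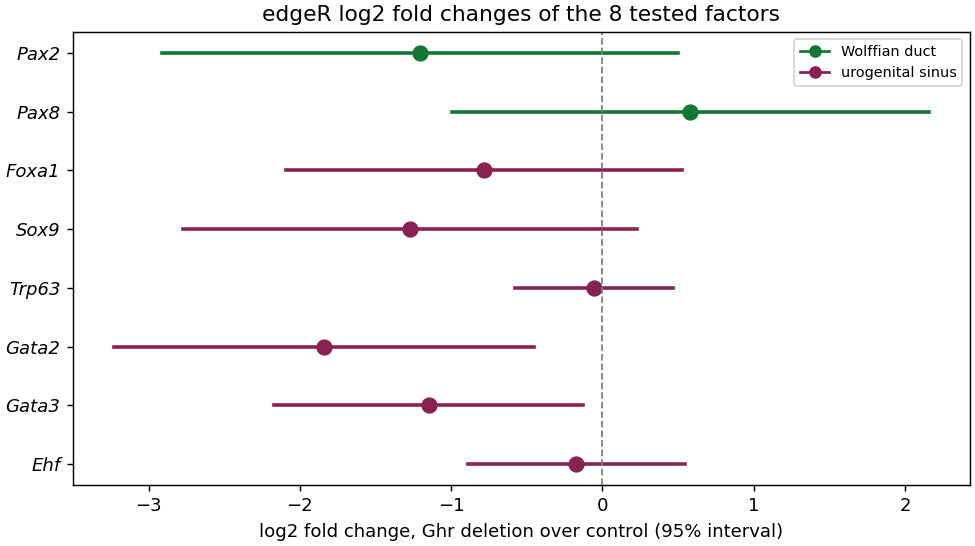
Points give edgeR's log2 fold change of the libraries labelled Ghr deletion over the controls for the 8 tested factors, and lines give 95% intervals for each gene, not adjusted for the number of genes. The intervals of Gata2 (-3.23 to -0.45) and Gata3 (-2.17 to -0.13) lie below 0, and the other 6 include 0.

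Across the set, 8 of 9 factors passed the filter on low counts, and 0 of 8 passed the test at an adjusted p under 0.05 by edgeR, where 0% of 18590 genes were called in either direction. At an adjusted p under 0.05, DESeq2 called 20 genes higher (0.108% of 18550) and 61 lower (0.329%), and 0 of the 8 factors. At an unadjusted p under 0.05, edgeR listed 792 genes in all. For 2 factors, Gata2 and Gata3, the unadjusted p was under 0.05 on the lower side, where 3.1% of genes were, and 0 factors were so on the higher side, where 1.16% of genes were. In 3 factors, Pax2, Gata2 and Gata3, both deletion-labelled libraries were below every control in CPM, against 12.5% of all genes, and in 0 factors were both above every control, against 10.8%. The median log2 fold change was -0.97 over the 8 factors and -0.006 over all genes. The estimate was below 0 for 7 of the 8, and Pax8 was the exception. On log2(TPM + 1), where the median of all genes was 0.87, Pax2, Foxa1, Sox9, Trp63, Gata3 and Ehf also had estimates above 0, and Gata2 had -0.21. With 3 against 2 libraries, an exact test of 1 value cannot give a two-sided p below 0.2, and none is given.

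Some other transcription factors of the same lineages showed similar contrasts between control libraries, and others did not. Of 10 further factors of the Wolffian duct and mesonephros, 8 were tested and 0 passed in either direction by edgeR, and Lhx1 and Six2 were at 0 in all 5 libraries. The list's median log2 fold change was -0.22. Emx2, a homeobox factor of the urogenital ridge and the most abundant of the list, had 10.0, 11.7 and 61.0 CPM among controls, against 53.4 and 49.9 CPM in the deletion-labelled pair, the same division of libraries as Pax8. Osr1, an odd-skipped factor of intermediate mesoderm, had 6.36, 7.19 and 12.0 CPM among controls, against 9.94 and 8.35 CPM in the deletion-labelled pair. Wt1, a zinc finger factor of the mesonephros, had 8.58, 4.47 and 1.52 CPM among controls, against 1.70 and 1.03 CPM in the deletion-labelled pair. Eya1 and Tcf21, with log2 fold changes of 0.56 (SE 0.30) and 0.47 (SE 0.26), were less uneven.

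Of 18 further factors of prostate and urogenital sinus epithelium, 17 were tested and 0 passed by edgeR. Their median log2 fold change was -0.77, 5 of the 17 were below every control in both deletion-labelled libraries (12.5% of all genes), and 0 were above (10.8%). Hoxd13, a posterior homeobox factor, had 17.8, 10.6 and 1.76 CPM among controls, against 1.59 and 2.15 CPM in the deletion-labelled pair, so control replicates 1 and 2 stood apart as for Gata2. Elf3, an ETS relative of Ehf that is also in the list of relatives below and whose counts were in part fractional, had 38.2, 35.7 and 21.2 CPM among controls, against 16.6 and 17.9 CPM in the deletion-labelled pair. Grhl1, a grainyhead factor of epithelium, had 21.4, 31.2 and 16.7 CPM among controls, against 9.73 and 12.1 CPM in the deletion-labelled pair, and its log2 fold change was -1.08 (SE 0.32). Ovol1, a zinc finger factor of epithelium, had -1.01 (SE 0.43). Grhl2, a grainyhead factor among the most abundant of the list, had a log2 fold change of 0.11 (SE 0.25). It had 95.6, 136 and 145 CPM among controls, against 131 and 140 CPM in the deletion-labelled pair, with the least in control replicate 1.

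Many relatives of the 9 factors were near 0. Of 19 relatives, 9 were tested and 0 passed by edgeR, with a median log2 fold change of 0.053. Pax1, Pax4 and Pax7 were at 0 in all 5 libraries, and Foxa3, Gata1 and Gata4 had 3 counts at most. Elf5, an ETS factor of secretory epithelium and the most abundant relative, had 248, 191 and 457 CPM among controls, against 449 and 425 CPM in the deletion-labelled pair, a division of libraries like that of Pax8. Gata5 had 0, 0 and 87 counts among controls, against 92 and 79 in the deletion-labelled pair. Gata6 had 1, 2 and 27 counts among controls, against 33 and 50 in the deletion-labelled pair, so both of these Gata genes were nearly absent where Gata2 and Gata3 were highest. Sox8 had 1.54, 0.873 and 0.419 CPM among controls, against 0.408 and 0.404 CPM, from 16 to 25 counts in each library. Spdef, an ETS factor of secretory cells, had 7.53 to 17.0 CPM.

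**Figure D5:**
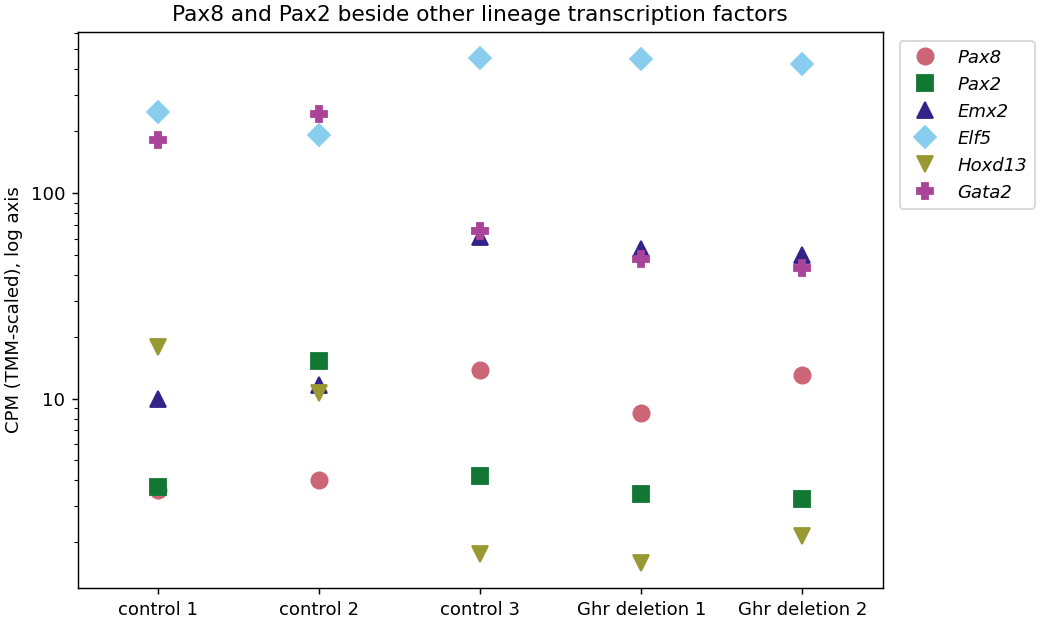
Points give TMM-scaled CPM on a log axis for 6 transcription factors in each of the 5 libraries. Pax8, Emx2 and Elf5 were lowest in control replicates 1 and 2, where Gata2 and Hoxd13 were highest, and Pax2 was high in control replicate 2 only.

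Secretory genes of Wolffian derivatives were divided between the same libraries, in both directions. Crisp1, a sperm-binding protein of the epididymis, had 0.185, 2.72 and 866 CPM among controls, against 217 and 831 CPM in the deletion-labelled pair. Akr1b7, an aldose reductase of the vas deferens, had 1.79, 6.32 and 946 CPM among controls, against 351 and 1310 CPM in the deletion-labelled pair. Of the 7 epididymis and vas deferens markers 3 were tested, the defining epididymal genes Lcn8, Lcn9 and Defb12 were at 0 in all 5 libraries, and the list summed to 1.98, 9.04 and 1810 CPM among controls, against 569 and 2140 CPM in the deletion-labelled pair. The 8 seminal vesicle genes summed to 452000, 234000 and 235000 CPM among controls, against 105000 and 183000 CPM in the deletion-labelled pair, both below every control. In 6 of those 8, both deletion-labelled libraries were below every control, as in 12.5% of all genes. Crisp1 and Akr1b7 were low in control replicates 1 and 2, where Pax8 was low, while Svs1, Svs3a, Svs3b and Svs6 were highest there. Svs2 and Pate4, of the same 8 seminal vesicle genes, were instead highest in control replicate 3, with 141000 and 33100 CPM. They were lowest in control replicate 2, with 47300 and 10500 CPM. The part of other Wolffian tissue in the Pax8 values was not tested.

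Markers of stroma and urothelium overlapped between the groups in their sums. Fibroblast markers summed to 1290, 899 and 2560 CPM among controls, against 3220 and 1410 CPM in the deletion-labelled pair. Smooth muscle markers summed to 5010, 2140 and 7150 CPM among controls, against 5950 and 6320 CPM in the deletion-labelled pair, with the lowest sum in control replicate 2, where Gata2 was highest. Skeletal muscle markers summed to 164, 87.7 and 328 CPM among controls, against 103 and 143 CPM in the deletion-labelled pair. Urothelial markers, for cells of the urethra and bladder in which Gata3 is also active, summed to 59.8, 53.6 and 21.2 CPM among controls, against 49.1 and 96.1 CPM in the deletion-labelled pair, and Upk1b made up most of the sum.

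Genes with the most similar pattern were ranked by the root mean square difference of log2 CPM, each gene centred on its own mean over the 5 libraries, among 14410 named genes. For Pax8 the nearest were Neu2, a sialidase (0.107), Fam20c, a kinase of secreted proteins (0.118), and Spin2c (0.123). Fam20c had 5.99, 6.52 and 24.7 CPM among controls, against 16.4 and 19.6 CPM in the deletion-labelled pair. For Pax2 they were Rpgrip1, a protein of the photoreceptor cilium (0.0272), Bcl9l, a cofactor of beta-catenin (0.0892), and Galnt14, a glycosyltransferase (0.0975). For Ehf they included Rpl12, a ribosomal protein (0.031), and Ifi30, a lysosomal reductase (0.0357). With only 5 libraries many genes lie close by this measure, and closeness is a description. Among the factors themselves the closest pairs were Trp63 and Ehf (0.151), Gata2 and Gata3 (0.350) and Foxa1 and Sox9 (0.354), and Pax8 and Gata2 were the farthest apart (1.79). Pax2 and Pax8 stood 1.43 apart.

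The mean transcript length that the authors' counting assigned to a gene, which reflects the mix of its transcripts, also varied for some factors. Ehf had 4048, 3357 and 3988 bases among controls, against 3991 and 3925 bases in the libraries labelled Ghr deletion, so control replicate 2 stood out. Trp63 was also shortest there, with 3959 bases against 4230 to 4339 in the other 4. Pax8 ran from 1929 to 2381 bases and Pax2 from 2241 to 2585 bases, with no division by group, while Foxa1 and Sox9 had the same length in every library. Transcript levels were not analysed here, so which isoforms differ is not known. With effective lengths in the model the log2 fold changes of Pax2 and Pax8 were -1.09 and 0.43.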

How the data were processed

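The libraries were TruSeq Stranded Total RNA, per the labels' protocols, and the submitters' processing notes name STAR 2.5.3a, RSEM 1.3.0 and GRCm38. Annotation release: not given in the sources used here. Strand setting in counting: likewise. The authors deposited expected counts, in which RSEM shares reads that fit several genes, with TPM, FPKM (not used here) and lengths per gene. Expected counts were rounded, filtered with filterByExpr and scaled by TMM. Groups, from the sample titles, were compared with edgeR 4.0.16 (quasi-likelihood test, R 4.3.3) over all 18590 genes tested, with Benjamini-Hochberg adjustment. Symbols matched 99.5% of identifiers, and coordinates are GENCODE M21. The fit was tested on simulated data. The alternatives included DESeq2 1.42.0 and limma 3.58.1 on log2(TPM + pseudocount). The members and lists were chosen with earlier results of these data known. All 9 members are named, and of each list of other factors the 4 with the smallest p and the 3 with the highest mean TPM, plus others picked after their values were seen (Hoxb13, Gata5, the relatives at or near 0 counts and single markers). Some genes that the rule names are not reported here.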

Additional observations from a re-analysis of the deposited data

How the results depend on the processing

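For the counts of genes called higher and lower (0 and 0), DESeq2 gave 20 and 61, no filter on low counts gave 2 and 0, limma-trend gave 2234 and 60 on log2(TPM + 1) and 686 and 47 on log2(TPM + 0.1), and leaving out 1 library gave 0 to 15 and 0 to 33, with both upper values without control replicate 3. With the replicate number as a block the counts were 552 and 574. In that fit Gata2 (log2 fold change -2.21), Sox9 (-1.68), Gata3 (-1.44) and Pax8 (1.48) passed, with adjusted p of 0.000703, 0.00414, 0.00941 and 0.0221 by edgeR. The samples share only a number, and control replicate 3 has no partner and so adds nothing to the group term. The correlations of deviations from the group means were 0.281 and 0.296 for replicates 1 and 2. These values are not independent, because the deviations of the 2 deletion-labelled libraries are equal with opposite sign. The other settings called none of the 8 tested factors.

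Over all genes the median log2 fold change was 0.58 with library size only, 0.87 on log2(TPM + 1) and 1.33 on log2(TPM + 0.1), which turned several signs. On the latter pair of scales Pax2 had 0.37 and 0.63, Foxa1 0.41 and 0.65, Sox9 0.28 and 0.39, Trp63 1.19 and 1.39, Gata3 0.47 and 0.49, and Ehf 1.22 and 1.24, respectively. With library size only, Trp63 had 0.56 and Ehf 0.43. With 1 library left out, Trp63 ran from -0.163 (without control replicate 3) to 0.092 (without control replicate 1). With control replicates 1 and 2 both left out, an alternative added once the values were known that keeps 1 control, Pax8 had -0.35, Foxa1 0.17, Sox9 0.20 and Trp63 0.18. The cause of the turns beyond these shifts was not tested. The difference in the share of Pax2 and Pax8 ran from 0.168 to 1.81 percentage points with 1 library left out, and as a difference of mean log2(TPM + 0.1) it was 0.809. Foxa2 could not be fitted under any setting. Whether Foxa2 was absent or lay below what this depth can detect cannot be told from 0 counts.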
